A study of Homo sapiens with 26 samples.

Results

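The homologous recombination and Fanconi anemia genes described here are 39 genes, taken by symbol from both FPKM tables of the series. The first table lists 18165 genes and the second 17734, and each of the 39 symbols occurs once in each. All 39 reached the level asked for in testing, 2 or more libraries of a table at an FPKM of 1 or more, as did 12607 genes of the first table and 12463 of the second. FPKM counts fragments per kilobase of transcript, scaled to the size of the library, so it allows levels of different genes to be set side by side.

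The cells were LoVo, an established human colorectal cancer line, and RNA was enriched for poly(A) before sequencing. Wild type cells (PIK3CA/WT) and 2 lines given a mutant PIK3CA by lentivirus, E545K or H1047R, were used. PIK3CA encodes the catalytic subunit of a PI3 kinase, and both mutations are known to activate it. The series description lists E545K lines 2# and 5# and H1047R lines 2# and 3#, and names 2# of E545K and 3# of H1047R for the palbociclib experiment, so each mutation is represented there by 1 line. The promoter of the vector, and whether its reads were counted under PIK3CA, are not given in the sources used here. The first table holds 9 groups of 2 libraries: wild type, E545K and H1047R cells given DMSO, 0.5 µM palbociclib (an inhibitor of CDK4 and CDK6) with 72 hours given for both, or conditioned medium taken from senescent cells. The second table holds 4 groups of 2 libraries: each mutant line in 0.5 µM palbociclib, without or with 4 µM erlotinib (an inhibitor of the EGF receptor), the combination for 48 hours. All cells were kept in DMEM with 10% serum, and the protocol also mentions collection of control cells at 48 hours. How long cells stayed in conditioned medium, which line made that medium, and how long the second set of palbociclib libraries was treated are not given in the sources used here. The labels do not say whether the 2 libraries of a group came from separate cultures, so the spread behind every p-value may be technical. That spread was estimated for each gene from all groups of a table together. Standard errors (SE) and p-values therefore do not measure the spread of the groups compared alone.

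The level of PIK3CA itself did not set every mutant group apart from wild type. It measured 5.38 and 5.42 FPKM in wild type DMSO, 8.20 and 7.37 in the E545K libraries and 6.36 and 7.19 in the H1047R ones. Palbociclib libraries measured 7.23 and 6.68 (wild type), 10.4 and 9.92 (E545K) and 5.95 and 4.38 (H1047R), and in conditioned medium 6.20 and 5.93, 15.2 and 16.3, and 6.79 and 5.75 in the same order. E545K thus lay above wild type in each treatment, whereas H1047R lay above it in DMSO, below it in palbociclib and overlapped with it in medium. FPKM does not show the mutation, so the groups are used as labelled.

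Homologous recombination repairs broken DNA by copying the sister chromatid. The ends are resected by MRE11, RAD50, NBN and RBBP8 (the CtIP protein), then BRCA1 with BARD1 and PALB2 brings BRCA2 to the single strand, and RAD51B, RAD51C, RAD51D, XRCC2, XRCC3, RAD51AP1 and the RAD54 translocases help strand exchange. The Fanconi anemia pathway opens crosslinks between DNA strands: a core complex with the ligase FANCL and the E2 enzyme UBE2T puts ubiquitin on FANCD2 and FANCI, and the kinases ATM and ATR signal the damage. These genes are known to be used mostly in S and G2 phase, and many are transcribed in a cell cycle dependent way.

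Epithelial markers were high in all libraries, but not every intestinal one. EPCAM lay at 182 to 417 FPKM and KRT8 at 3436 to 8612 over the 26 libraries and the intestinal factor CDX2 at 18.7 to 89.7, while CDX1 and KRT20 did not pass 1.20, the endothelial marker CDH5 did not pass 0.01 and the fibroblast markers DCN and LUM did not pass 0.06. The summed fibroblast markers were highest in wild type conditioned medium (20.8 and 18.6 FPKM, most of it COL3A1) against 1.01 to 12.9 in the other libraries, and their part in the results was not tested. Of the leukocyte markers CD68 was measured at 24.1 to 68.9 FPKM, and PTPRC did not pass 1.55. Ribosomal protein genes held 27.0% and 27.3% of the FPKM sum in the wild type DMSO libraries and 17.2% to 26.1% in the rest of the first table, and 20.5% to 27.1% over the second table. The FPKM of a library summed to 446862 to 524290 in the first table and 441643 to 464405 in the second. Log2 changes are given below relative to the median change of all genes tested in that comparison (relative log2 changes). The test asks of the unshifted change whether it is 0. Levels are bulk values, in which fewer cells using a gene and less RNA per cell cannot be told apart. The 2 H1047R palbociclib libraries of the first table stood furthest apart of all pairs (replicate SD 0.23 on the log2 scale, 0.09 to 0.17 in the other groups), and their MKI67, a marker of cycling cells, was 31.7 and 16.7 FPKM. Because the spread was shared by all groups, the SE of comparisons with this group does not show its wider spread in full.

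The 39 genes were expressed at low to moderate levels, and wild type DMSO or palbociclib was the lowest group for most of them. Over the 9 groups of the first table the lowest mean was in wild type DMSO for 20 genes and in wild type palbociclib for 12, where 43.8% and 9% of all genes tested had theirs. The highest mean was in conditioned medium for 33 genes, against 34.1% of all genes. Of these 13 were in E545K, 10 in H1047R and 10 in wild type, where 17.7%, 6.32% and 10.1% of all genes were. It was in E545K DMSO for 5, near the 13.3% of all genes. FANCE, a subunit of the Fanconi core complex, was the 1 gene highest in wild type DMSO, where 11% of all genes were. The highest group mean exceeded the lowest by 1.43-fold (FANCB) to 8.66-fold (BRCA1), with a median of 2.37-fold against 1.99-fold over all genes tested that had every group mean above 0. The summed FPKM of the 39 genes ran from 275 to 554 in the first table, with 305 and 291 in the wild type DMSO libraries, 294 and 275 in wild type palbociclib, and 516 to 554 in the 6 conditioned medium libraries. In each library of the first table either UBE2T (28.0 to 57.6 FPKM) or FANCI (20.2 to 57.7) had the highest level of the set, and FANCF, a core complex adaptor, was among the lowest at 0.94 to 2.55.

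**Figure D1:**
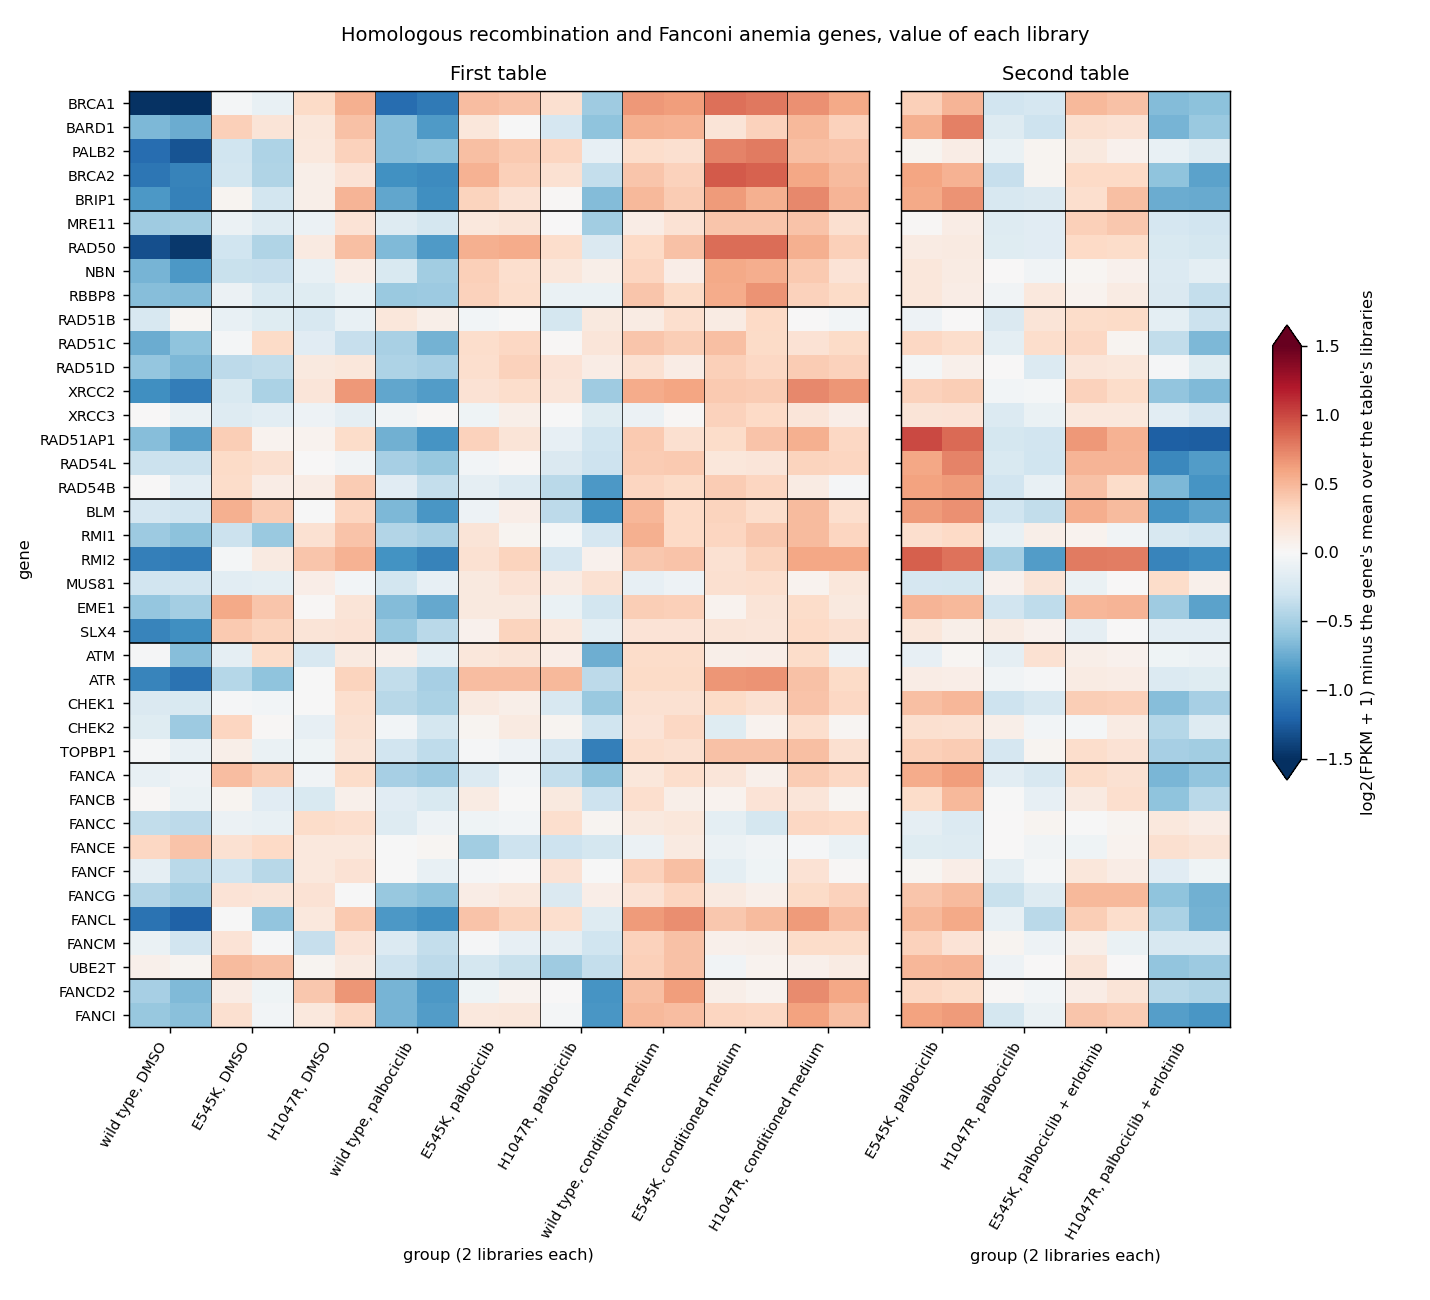
Heat map of log2(FPKM + 1) of the 39 genes (rows, in blocks by role) in each library (columns, 2 per group), as the difference from the gene's own mean over the 18 libraries of the first table (left) or the 8 of the second (right); colours stop at 1.5 on either side. The wild type DMSO and palbociclib columns are mostly blue in the first table, the 6 conditioned medium columns are red for most genes, and in the second table both H1047R groups lie below both E545K groups for most genes.

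How the genes stood before any drug was asked by setting the DMSO libraries of each mutant line against those of wild type. BRCA1, PALB2, BRCA2, RAD50, SLX4 and RMI2 were called higher in either mutant, while ATM, FANCB and RAD51B were called in neither. In E545K 27 of 39 were called higher (limma, Benjamini-Hochberg adjusted p below 0.05) where 48.4% of all genes were, and their median relative change was 0.28. In H1047R 30 of 39 were called higher where 49.9% of all genes were, with a median relative change of 0.32. Both comparisons use the same 2 wild type DMSO libraries. With each library left out in turn, 20 of the 27 calls and 25 of the 30 stayed past the threshold every time. The split depended on the scaling between libraries: after quantile normalization it was 19 higher and 4 lower in E545K and 20 higher and 5 lower in H1047R, and median-centring left 16 against 4 and 19 against 5. Calls in the same direction under quantile normalization, median-centring and the TPM scale numbered 16 and 18. Shares of all genes are given only for the values without such rescaling and with all libraries. Counts after rescaling, or with a library left out, are therefore not set against a background, here and below.

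Among the BRCA1 complexes and BRCA2 loading genes all 5 were called higher in either mutant. BRCA1 (gene ID 672, chromosome 17, 43044295 to 43170327 by RefSeq on GRCh38.p14) measured 1.52 and 1.11 FPKM in wild type, 5.93 and 5.56 in E545K, and 7.61 and 9.23 in H1047R. The wild type libraries lay far below the 4 mutant ones. The E545K line exceeded wild type by a relative log2 change of 1.30 (SE 0.17, adjusted p 4.07e-06) and the H1047R line by 1.76 (SE 0.17, adjusted p 1.29e-07). PALB2, the bridge between BRCA1 and BRCA2 (chromosome 16, 23603165 to 23641310), measured 2.21 and 1.88 in wild type, 4.76 and 4.12 in E545K, and 6.92 and 8.01 in H1047R (1.21, SE 0.12, adjusted p 8e-08), 3 groups that did not overlap. BRCA2 measured 0.58 and 0.68 in wild type, 1.77 and 1.45 in E545K, and 2.57 and 2.87 in H1047R. It was again lowest in wild type, with relative log2 changes of 0.42 (E545K, SE 0.15, adjusted p 0.0011) and 0.93 (H1047R, SE 0.15, adjusted p 4.69e-06). At levels this low, log2(FPKM + 1) understates a fold change.

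The 4 end resection genes were also called higher in both mutants. RAD50, the ATPase of the complex with MRE11 and NBN (chromosome 5, 132556977 to 132646349), measured 3.15 and 2.80 FPKM in wild type, 7.37 and 6.54 in E545K, and 10.3 and 13.1 in H1047R. The 3 groups did not overlap, with relative log2 changes of 0.75 (E545K, SE 0.14, adjusted p 3.2e-05) and 1.41 (H1047R, SE 0.14, adjusted p 1.11e-07). The call of MRE11, the nuclease, in E545K was lost without either wild type DMSO library and without E545K DMSO replicate 1.

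The 8 strand exchange helpers (RAD51B, RAD51C, RAD51D, XRCC2, XRCC3, RAD51AP1, RAD54L and RAD54B) were called higher in 5 of 8 genes in E545K and 6 of 8 in H1047R. RAD51B and XRCC3 were called in neither: XRCC3 measured 13.7 and 12.6 FPKM in wild type, 11.7 and 12.1 in E545K, and 12.8 and 12.3 in H1047R. Of the dissolution and resolution genes 4 of 6 were called higher in E545K and 6 of 6 in H1047R. RMI2, which stabilises the BLM complex, measured 5.25 and 5.13 in wild type, 11.4 and 12.9 in E545K, and 16.0 and 17.2 in H1047R. The groups lay well apart, with relative log2 changes of 0.83 (E545K, SE 0.10, adjusted p 4.88e-07) and 1.24 (H1047R, SE 0.10, adjusted p 8.14e-09). SLX4, a scaffold of nucleases, measured 1.29 and 1.41 in wild type, 4.97 and 4.73 in E545K, and 4.23 and 4.31 in H1047R. EME1, the partner of the nuclease MUS81, measured 3.77 and 4.00 in wild type, 9.59 and 8.53 in E545K, and 6.22 and 7.17 in H1047R. For SLX4 and EME1 the order of the mutants was turned, with E545K on top, and their relative log2 changes were 1.06 (SE 0.11) and 0.79 (SE 0.10) in E545K.

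Of the 5 checkpoint genes 2 were called higher in E545K and 3 in H1047R, with median relative changes of 0.15 and 0.09. ATM, the kinase of double-strand breaks, was called in neither mutant, and its relative change in H1047R (0.01) turned to -0.17 after quantile normalization: its libraries measured 5.67 and 3.36 FPKM in wild type, 5.16 and 7.20 in E545K, and 4.72 and 6.44 in H1047R. These groups overlapped. ATR, the kinase of stalled forks, measured 1.90 and 1.69, 3.30 and 2.79, and 4.74 and 6.25 in the same order, and its E545K call was lost without either wild type DMSO library and without E545K DMSO replicate 1. Of the 9 core complex and E2 genes, 5 were called higher in E545K and 4 in H1047R, with medians of 0.03 and -0.05 relative to all genes. FANCL, the ubiquitin ligase, measured 4.37 and 4.00 in wild type, 10.6 and 6.70 in E545K, and 12.0 and 14.3 in H1047R, the core complex gene with the largest relative log2 change in either mutant (0.61, SE 0.16, and 1.18, SE 0.16). FANCD2, its substrate (chromosome 3, 10026437 to 10101932), measured 7.13 and 6.22 in wild type, 11.4 and 9.91 in E545K, and 14.1 and 17.2 in H1047R. The 3 groups did not overlap, with relative log2 changes of 0.35 (E545K, SE 0.20, adjusted p 0.0172) and 0.85 (H1047R, SE 0.20, adjusted p 0.000164). The E545K call of FANCD2 was lost without wild type DMSO replicate 2 and without E545K DMSO replicate 1. Nor did it hold under all of quantile normalization, median-centring and the TPM scale. As elsewhere, the adjusted p is that of the change before the median was subtracted.

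Of 54 other genes of the pathway that could be tested (of 55 listed, among them EXO1, GEN1 and the RPA genes), 34 were called higher in E545K and 35 in H1047R, with 4 lower in H1047R and medians of 0.15 and 0.17. GEN1, a resolvase, had relative log2 changes of 1.37 and 2.23. In 28 replication genes the medians were 0.34 and 0.53, with 24 called higher in E545K and 23 in H1047R. In 23 mitosis genes the medians were 0.21 and -0.01, with 17 and 12 called higher and 5 lower in H1047R. MKI67 measured 52.2 and 45.7 FPKM in wild type DMSO, 61.8 and 48.6 in E545K, and 55.5 and 61.2 in H1047R.

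**Figure D2:**
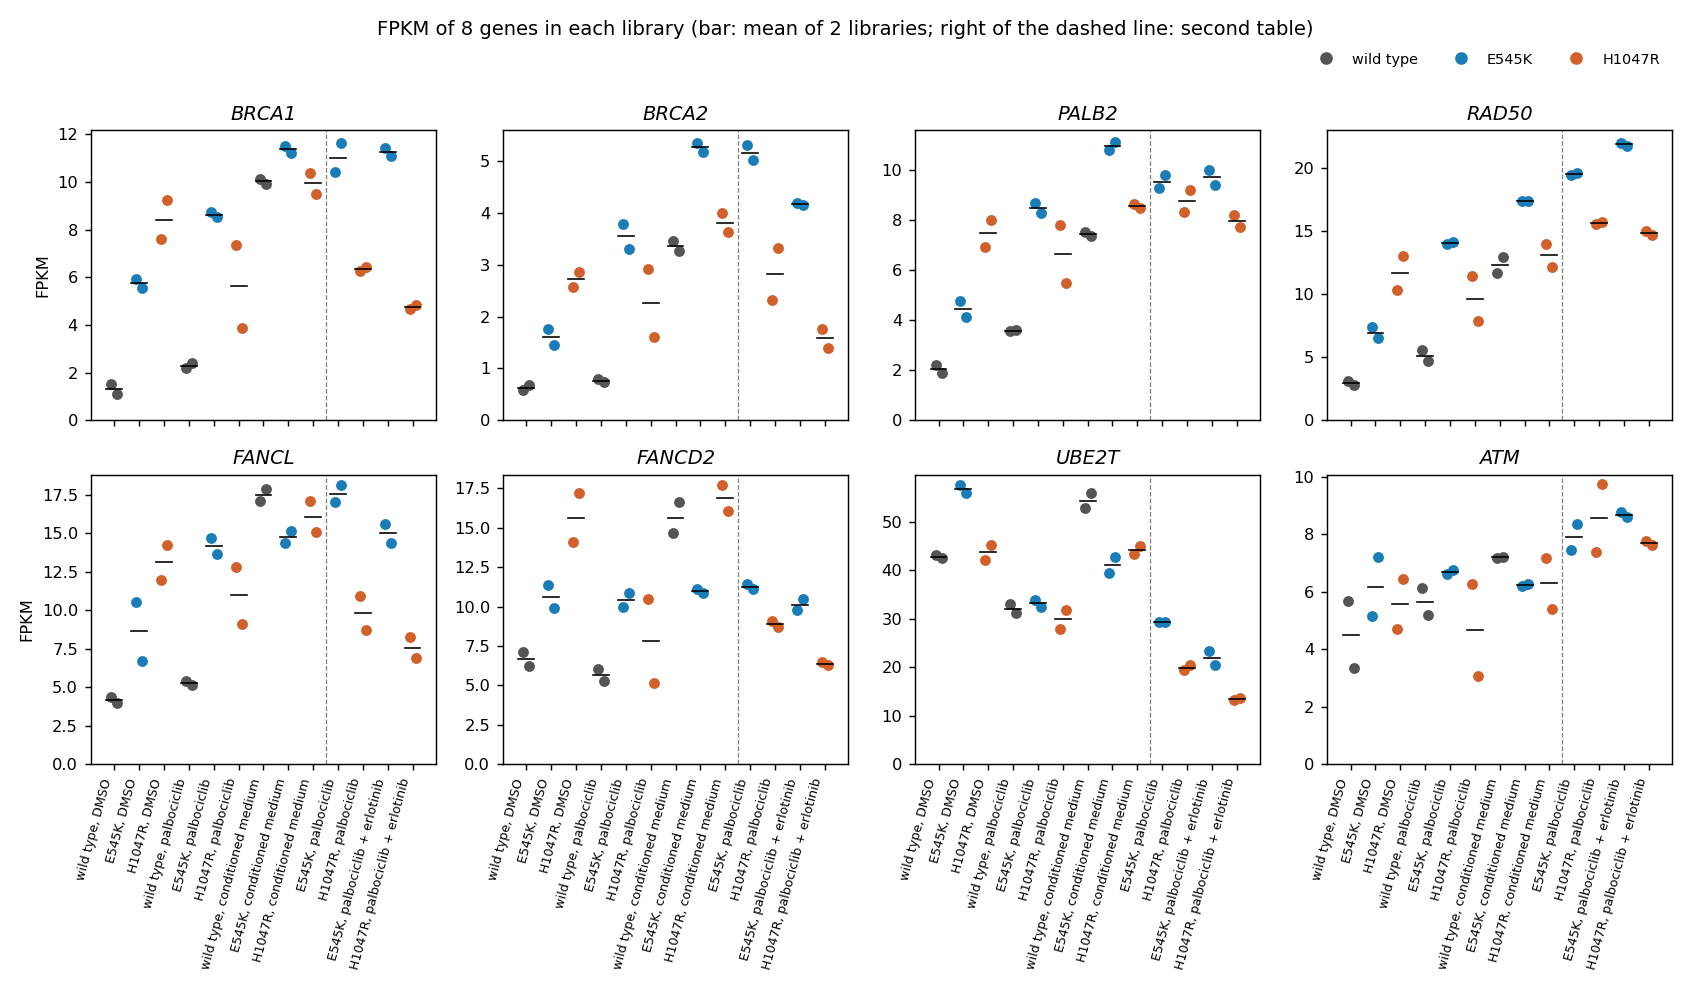
FPKM (vertical axis, linear from 0) of 8 genes in each library, coloured by line; short bars are means of 2 libraries, and the dashed line separates the first table (left) from the second (right), which were normalised apart. BRCA1, BRCA2, PALB2, RAD50 and FANCL are lowest in wild type DMSO and palbociclib, UBE2T falls under palbociclib in each line, and the DMSO groups of ATM overlap.

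Palbociclib was then compared with DMSO in each line, which asks what the inhibitor did to these genes. Calls went in both directions in each line. In wild type 7 of 39 genes were called higher and 5 lower, where 27.2% and 6.77% of all genes were, with a median relative change of -0.05. In E545K 13 were called higher and 7 lower, shares near the 32.9% and 19.3% of all genes that were, with a median of 0.04. In H1047R 18 were called lower and 1 higher, where 19.8% and 19.5% of all genes were, with a median of -0.23. The wild type count of 12 was 4 without wild type DMSO replicate 2, and 6 and 5 without palbociclib replicates 1 and 2. After quantile normalization it split into 2 higher and 11 lower, after median-centring into 3 and 9, and on the TPM scale into 6 and 3. In E545K the split became 11 to 10 with quantile normalization and 11 to 9 with median-centring.

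The H1047R count rested on single libraries. It was 10 without H1047R DMSO replicate 2, 11 without H1047R palbociclib replicate 2, and 28 without H1047R palbociclib replicate 1, and 9 of the 18 lower calls stayed with each library left out in turn. With only the 2 groups compared in the limma fit no gene was called, and 14 were lower and 1 higher at an unadjusted p below 0.05. In ATR the 2 H1047R palbociclib libraries measured 7.07 and 3.41 FPKM against 4.74 and 6.25 in DMSO, so that 1 lay above both DMSO libraries and 1 below.

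**Figure D3:**
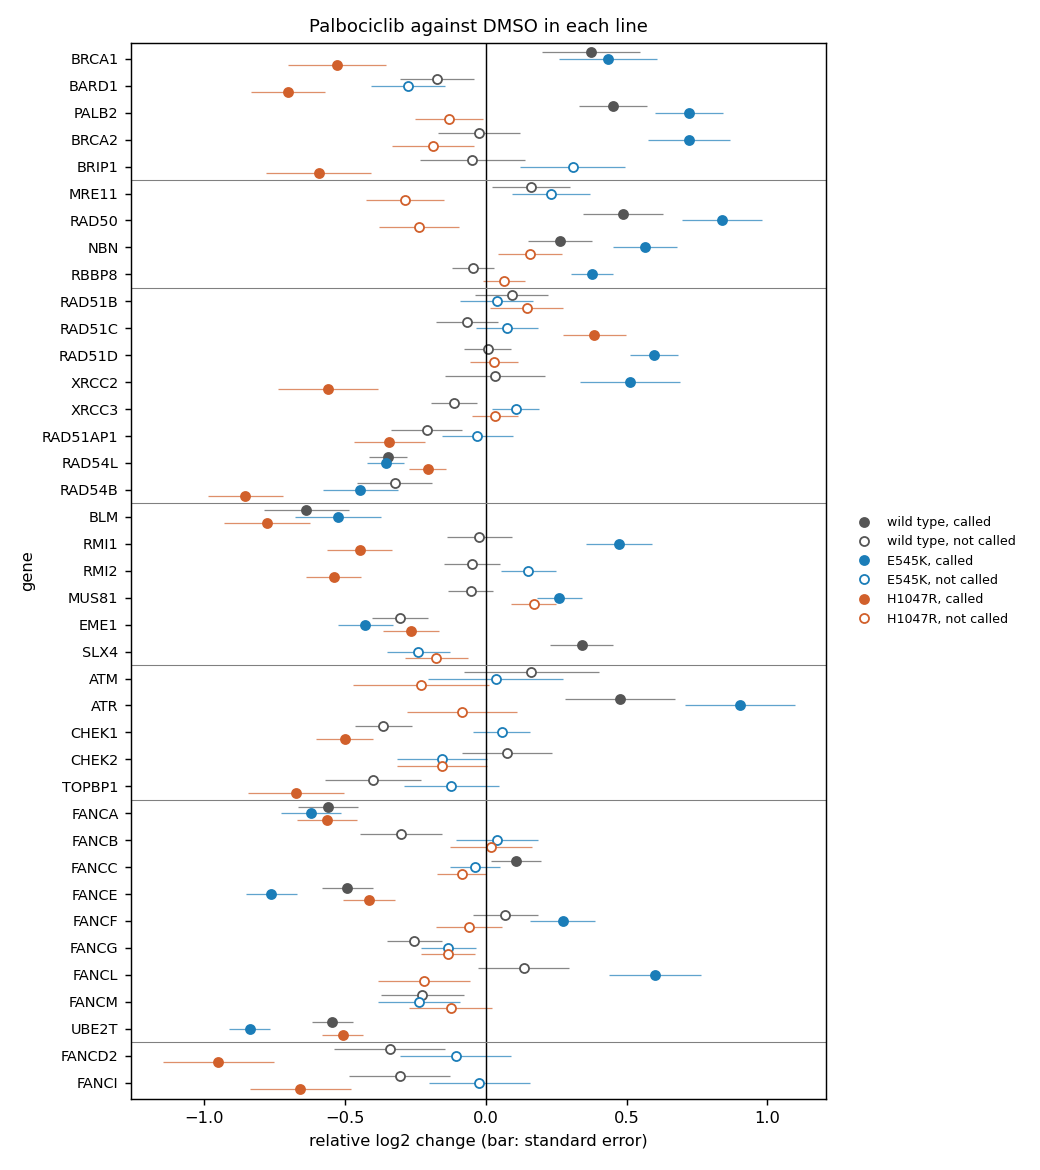
Relative log2 change of each gene under palbociclib against DMSO (horizontal axis, bars are standard errors), in wild type (grey), E545K (blue) and H1047R (orange); filled points were called at an adjusted p below 0.05. FANCA, FANCE, UBE2T, BLM and RAD54L lie left of 0 with filled points in all 3 lines, while ATR, RAD50 and PALB2 lie to the right in wild type and E545K only.

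A group of 5 genes was called lower by palbociclib in all 3 lines: UBE2T, FANCA, FANCE, BLM and RAD54L, which is 5 of the 5 lower calls of wild type, of the 7 of E545K and of the 18 of H1047R. Of all genes tested 2.76% were called lower in all 3 lines. UBE2T, the E2 enzyme of FANCD2 ubiquitination, measured 43.3 and 42.5 FPKM in wild type DMSO and 33.0 and 31.2 in palbociclib. In E545K it measured 57.6 and 56.0, then 34.0 and 32.4, and in H1047R 42.2 and 45.3, then 28.0 and 31.8. Treated and DMSO libraries were separate in every line. Relative log2 changes were -0.55 (wild type, SE 0.07, adjusted p 0.000775), -0.84 (E545K, SE 0.07, adjusted p 1.15e-06) and -0.51 (H1047R, SE 0.07, adjusted p 7.13e-05), and UBE2T kept its call in each line with any library left out. FANCE measured 12.6 and 13.7 then 9.94 and 10.2 in wild type, 11.9 and 12.5 then 6.64 and 7.83 in E545K, and 11.2 and 11.2 then 7.83 and 8.14 in H1047R. FANCA, the scaffold of the core complex, measured 15.1 and 15.5 then 11.4 and 11.0 in wild type, 23.1 and 21.5 then 14.1 and 16.0 in E545K, and 15.8 and 20.0 then 12.6 and 10.4 in H1047R. Both were lower in each treated library than in each DMSO library of the line, and FANCE changed by -0.76 in E545K (SE 0.09, adjusted p 2.37e-05) and FANCA by -0.56 in wild type (SE 0.11, adjusted p 0.00722).

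BLM, the helicase that dissolves crossed strands, measured 6.21 and 6.04 FPKM then 4.40 and 3.71 in wild type, 11.5 and 10.2 then 7.14 and 8.23 in E545K, and 7.56 and 9.79 then 5.53 and 3.64 in H1047R. RAD54L, a translocase on DNA, measured 10.7 and 10.7 then 9.32 and 8.87, 16.7 and 16.2 then 13.2 and 13.7, and 13.7 and 13.0 then 11.6 and 10.8 in the same order. Their libraries were again separate in each line, with BLM at -0.64 (wild type, SE 0.15, adjusted p 0.0209) and -0.78 (H1047R, SE 0.15, adjusted p 0.001). In wild type, the calls of FANCA and FANCE were lost without DMSO replicate 2 and without 1 palbociclib library (replicate 2 for FANCA, replicate 1 for FANCE), and that of BLM without either DMSO library or palbociclib replicate 2, and that of RAD54L without any 1 of the 4 libraries. The BLM call of E545K was lost without replicate 1 of DMSO or of palbociclib, and the RAD54L call of H1047R without DMSO replicate 1 or palbociclib replicate 2. In DMSO and palbociclib, MKI67 fell alongside, from 52.2 and 45.7 to 25.6 and 24.1 in wild type, from 61.8 and 48.6 to 34.8 and 37.9 in E545K, and from 55.5 and 61.2 to 31.7 and 16.7 in H1047R, and its part in these changes was not tested.

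Because these 5 genes were called lower in each line, the 250 bases before their RefSeq start sites (GRCh38.p14) are printed 5′ to 3′ on the gene's strand. Capitals mark letters searched for on both strands: the E2F-type words TTTGGCGC, TTTCCCGC, TTTCGCGC and TTTGCCGC, the CHR-type words TTTGAA and TTTAAA (the latter is its own reverse complement, and in these windows no word overlapped one of another kind), and the word CCAAT.
RAD54L (chr1:46247438-46247687, plus strand): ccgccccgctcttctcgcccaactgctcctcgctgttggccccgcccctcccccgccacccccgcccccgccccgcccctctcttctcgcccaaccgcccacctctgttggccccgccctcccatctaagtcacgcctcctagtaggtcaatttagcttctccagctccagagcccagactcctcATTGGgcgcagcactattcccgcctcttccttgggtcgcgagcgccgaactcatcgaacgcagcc
BLM (chr15:90717096-90717345, plus strand): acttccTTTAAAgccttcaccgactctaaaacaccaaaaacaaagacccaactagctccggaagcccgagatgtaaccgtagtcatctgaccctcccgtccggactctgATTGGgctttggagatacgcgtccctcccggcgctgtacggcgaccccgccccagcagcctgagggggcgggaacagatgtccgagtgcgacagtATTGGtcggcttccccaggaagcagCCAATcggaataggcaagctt
FANCA (chr16:89816648-89816897, minus strand): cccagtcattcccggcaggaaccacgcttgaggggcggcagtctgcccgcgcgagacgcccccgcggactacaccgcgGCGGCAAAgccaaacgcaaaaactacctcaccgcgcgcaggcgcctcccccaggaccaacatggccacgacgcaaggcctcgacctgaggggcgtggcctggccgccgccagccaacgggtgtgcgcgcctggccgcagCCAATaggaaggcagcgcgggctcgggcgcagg
FANCE (chr6:35452088-35452337, plus strand): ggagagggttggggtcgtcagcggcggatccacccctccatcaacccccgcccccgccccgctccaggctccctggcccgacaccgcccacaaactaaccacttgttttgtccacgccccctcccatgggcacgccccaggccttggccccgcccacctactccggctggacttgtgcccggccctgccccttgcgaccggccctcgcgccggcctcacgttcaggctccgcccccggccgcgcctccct
UBE2T (chr1:202341937-202342186, minus strand): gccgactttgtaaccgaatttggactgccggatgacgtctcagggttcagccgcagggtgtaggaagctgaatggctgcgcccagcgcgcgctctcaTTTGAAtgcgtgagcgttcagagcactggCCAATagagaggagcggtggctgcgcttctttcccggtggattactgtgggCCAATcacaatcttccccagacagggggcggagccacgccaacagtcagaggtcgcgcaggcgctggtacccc
CCAAT or its reverse complement was present in the windows of BLM, FANCA, RAD54L and UBE2T, the E2F-type word in that of FANCA, a CHR-type word in those of BLM and UBE2T, and none of the letters in that of FANCE. Over the 35 of 39 genes with a window in the table, CCAAT was found in 45.7% against 32% of all 35116 windows, the E2F-type words in 5.71% (FANCA and FANCC) against 2.79%, and the CHR-type words in 17.1% against 21.9%. These are matches of letters, with no measurement of binding.

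A different group was called higher under palbociclib in wild type and E545K. It held PALB2, RAD50, NBN, ATR and BRCA1, which is 5 of the 7 higher calls of wild type and 5 of the 13 of E545K. These 5 of 39 stand beside 16.3% of all genes tested that were called higher in both lines, so the count is not above the background. PALB2 measured 2.21 and 1.88 FPKM then 3.55 and 3.60 in wild type, 4.76 and 4.12 then 8.69 and 8.27 in E545K, and 6.92 and 8.01 then 7.82 and 5.50 in H1047R. Treated libraries lay above DMSO in wild type and E545K and overlapped with it in H1047R. Relative log2 changes were 0.45 (wild type, SE 0.12, adjusted p 0.002), 0.72 (E545K, SE 0.12, adjusted p 6.86e-05) and -0.13 (H1047R, SE 0.12, adjusted p 0.316). RAD50 measured 3.15 and 2.80 then 5.54 and 4.74 in wild type, 7.37 and 6.54 then 14.0 and 14.1 in E545K, and 10.3 and 13.1 then 11.4 and 7.85 in H1047R. Its relative log2 changes were 0.49, 0.84 and -0.24 (SE 0.14 each; adjusted p 0.00376, 8.09e-05 and 0.15). ATR had the largest relative change of the 39 genes in E545K, from 3.30 and 2.79 to 6.98 and 6.98 (0.90, SE 0.20, adjusted p 0.000686). PALB2 and RAD50 kept both calls with any library left out, while the wild type call was lost for ATR without any 1 of the 4 libraries and for NBN without DMSO replicate 2 or palbociclib replicate 1.

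BRCA1 was called in all 3 lines, but not in 1 direction. It measured 1.52 and 1.11 FPKM then 2.19 and 2.39 in wild type, 5.93 and 5.56 then 8.73 and 8.54 in E545K, and 7.61 and 9.23 then 7.34 and 3.89 in H1047R. The treated libraries lay above DMSO in wild type and E545K and below it in H1047R. Relative log2 changes were 0.37 (wild type, SE 0.17, adjusted p 0.0351), 0.43 (E545K, SE 0.17, adjusted p 0.0226) and -0.53 (H1047R, SE 0.17, adjusted p 0.0217). None of the 3 calls was secure: the wild type call was lost without DMSO replicate 2 or either palbociclib replicate, the E545K call without any 1 of its 4 libraries, and the H1047R call without DMSO replicate 2 or palbociclib replicate 2. BRCA2 measured 0.58 and 0.68 then 0.79 and 0.74 in wild type, 1.77 and 1.45 then 3.80 and 3.30 in E545K, and 2.57 and 2.87 then 2.93 and 1.61 in H1047R. Only in E545K was it called, with a relative log2 change of 0.72 (SE 0.15, adjusted p 0.000338).

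The genes with the largest changes in H1047R were FANCD2, RAD54B, BLM and BARD1. FANCD2 measured 14.1 and 17.2 FPKM in DMSO and 10.5 and 5.17 in palbociclib, both treated libraries being lower (-0.95, SE 0.20, adjusted p 0.00159). In wild type it measured 7.13 and 6.22 then 6.04 and 5.29, and in E545K 11.4 and 9.91 then 9.97 and 10.9, with no call in either. BARD1, the partner of BRCA1, measured 5.45 and 6.81 then 3.84 and 2.78 in H1047R (-0.70, SE 0.13, adjusted p 0.000686). RAD54B measured 13.0 and 15.9 then 8.82 and 6.10 (-0.85, SE 0.13, adjusted p 0.000179). These 4 calls stayed with each library left out in turn. ATM was called in no line under palbociclib, with relative log2 changes of 0.16, 0.03 and -0.23 (SE 0.24 each), and its 2 treated H1047R libraries measured 6.28 and 3.09. The other genes with no call in any line were CHEK2, FANCB, FANCG, FANCM, MRE11, RAD51B and XRCC3.

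The replication list had medians of -0.34 (wild type), -0.03 (E545K) and -0.20 (H1047R), and 12, 6 and 14 of 28 genes were called lower. The mitosis list had medians of -0.70, -0.48 and -0.39, and 21, 16 and 17 of 23 were called lower. The 54 other genes of the pathway had medians of -0.0014, 0.03 and -0.12, with 15, 12 and 5 called higher and 5, 8 and 15 lower. The 14 end joining genes had medians of -0.02, 0.04 and -0.02, with 3 called higher in wild type, 5 higher and 1 lower in E545K, and 3 lower in H1047R.

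Conditioned medium of senescent cells was compared with the same DMSO libraries. No group was given medium from cells that were not senescent, and the labels give no treatment time for the medium groups. Effects of senescence, of conditioned medium as such and of time in culture therefore cannot be told apart. Relative changes lay above 0 for 34 of 39 genes (wild type), 25 (E545K) and 36 (H1047R), but the number called was unlike between the lines. In wild type 34 of 39 were called higher and FANCE alone lower, where 51.9% and 18.6% of all genes were, with a median relative change of 0.50. In E545K 18 were called higher and 4 lower, where 32.4% and 24.9% of all genes were, with a median of 0.19. In H1047R 3 were called higher, a share near the 8.65% of all genes that were, with a median of 0.19. Quantile normalization gave 25 higher and 3 lower in wild type and 17 and 8 in E545K, and median-centring 26 and 2, and 15 and 8. With each library left out in turn, 29 of the 34 higher calls of wild type, 14 of the 18 of E545K and 2 of the 3 of H1047R stayed. The summed fibroblast markers of the wild type medium libraries given above were 20.8 and 18.6 FPKM against 4.30 and 4.58 in DMSO, and their part was not tested.

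BRCA1 lay between 9.50 and 11.5 FPKM in the conditioned medium libraries of all 3 lines, from unequal levels in DMSO. It measured 10.1 and 9.93 FPKM in wild type medium, 11.5 and 11.2 in E545K, and 10.4 and 9.50 in H1047R, against the DMSO values of 1.52 and 1.11, 5.93 and 5.56, and 7.61 and 9.23. Medium libraries lay above the DMSO libraries in each line. BRCA1 changed by 1.97 in wild type (relative log2, SE 0.17, adjusted p 3.28e-08) and by 0.83 in E545K (SE 0.17, adjusted p 0.000587), while the H1047R value of 0.21 missed the threshold (SE 0.17, adjusted p 0.445). BRCA2 measured 3.47 and 3.27 in wild type medium, 5.36 and 5.18 in E545K, and 4.00 and 3.64 in H1047R, above DMSO in every line. BRCA2 changed by 1.13 in wild type (SE 0.15, adjusted p 6.24e-07) and by 1.22 in E545K (SE 0.15, adjusted p 4.02e-06), while the H1047R value of 0.36 missed the threshold (SE 0.15, adjusted p 0.103). Wild type DMSO lay at 0.58 and 0.68 FPKM, where log2(FPKM + 1) understates a fold change, so these values do not rank the lines. With a pseudocount of 0.25 the E545K response minus that of wild type was -0.20. FANCL measured 17.1 and 17.9 in wild type medium, 14.4 and 15.2 in E545K, and 17.1 and 15.1 in H1047R. From 4.37 and 4.00 in wild type DMSO this was a relative log2 change of 1.54 (SE 0.16, adjusted p 1.37e-07).

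RAD50 measured 11.7 and 13.0 FPKM in wild type medium, 17.4 and 17.4 in E545K, and 14.0 and 12.2 in H1047R. The wild type and E545K medium libraries were clear of their DMSO libraries (1.45, SE 0.14, adjusted p 5.38e-08, and 1.17, SE 0.14, adjusted p 4.6e-06), and those of H1047R overlapped with theirs. XRCC2, a strand exchange helper, measured 21.4 and 21.9 in wild type medium against 7.03 and 6.38 in DMSO (1.26, SE 0.18, adjusted p 1.98e-06). ATR measured 8.17 and 8.23 in E545K medium against 3.30 and 2.79 in DMSO (1.14, SE 0.20, adjusted p 0.000114). PALB2 measured 10.8 and 11.1 in E545K medium against 4.76 and 4.12 (1.09, SE 0.12, adjusted p 1.83e-06). In each of these the medium libraries lay above every DMSO library of the line.

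Not every gene followed. FANCE measured 9.30 and 11.1 FPKM in wild type medium against 12.6 and 13.7 in DMSO, and in E545K 9.31 and 9.57 against 11.9 and 12.5, and was called lower in both. Its wild type call was lost without medium replicate 1. FANCD2 was called in wild type, with 14.6 and 16.6 in medium against 7.13 and 6.22 (0.82, SE 0.20, adjusted p 0.000144), whereas in E545K it measured 11.1 and 10.9 against 11.4 and 9.91 and in H1047R 17.7 and 16.0 against 14.1 and 17.2. UBE2T was called lower in E545K medium, at 39.5 and 42.8 against 57.6 and 56.0 (-0.50, SE 0.07, adjusted p 9.47e-05). In H1047R the 3 genes called higher were RBBP8, which measured 21.7 and 20.8 against 14.8 and 15.6 (0.44, SE 0.07, adjusted p 0.00146), RAD54L, at 17.3 and 17.2 against 13.7 and 13.0 (0.34, SE 0.07, adjusted p 0.00329), and RAD51C, at 19.1 and 20.2 against 14.4 and 12.6. The RAD51C call (0.50, SE 0.11, adjusted p 0.00773) was lost without H1047R DMSO replicate 2 and without medium replicate 2. ATM was called in wild type medium (7.19 and 7.22 against 5.67 and 3.36, adjusted p 0.0354), but not without wild type DMSO replicate 2 or either medium library, and in neither mutant (6.21 and 6.28 in E545K medium, 7.17 and 5.42 in H1047R). FANCB was called in no line.

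**Figure D4:**
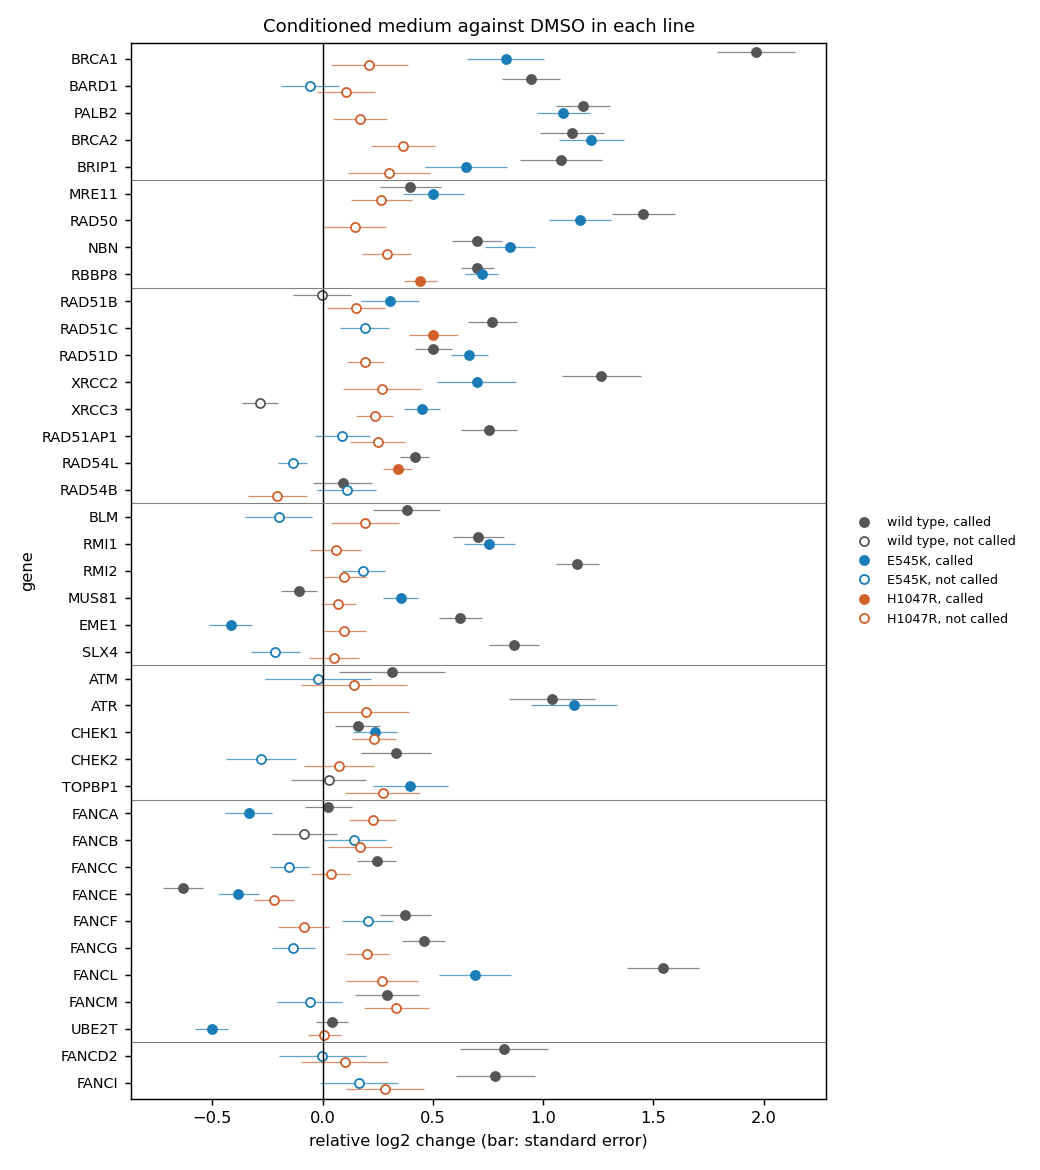
Relative log2 change of each gene in conditioned medium against DMSO (horizontal axis, bars are standard errors) in wild type (grey), E545K (blue) and H1047R (orange); filled points were called at an adjusted p below 0.05. Wild type reaches 1.97 at BRCA1 and 1.54 at FANCL, E545K 1.22 at BRCA2, and the filled H1047R points are RBBP8, RAD51C and RAD54L, the highest at 0.50.

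In conditioned medium the other lists moved as follows. Of the 28 replication genes 27 were called higher in wild type cells, 16 in those with E545K and 18 in those with H1047R, with medians of 0.76, 0.22 and 0.31. Of the 23 mitosis genes 16, 5 and 13 were called higher, and 1 in wild type and 10 in E545K lower, with medians of 0.09, -0.22 and 0.30. Of the 54 other genes of the pathway 39, 16 and 5 were called higher and 3, 12 and 2 lower, with medians of 0.31, 0.04 and 0.11. In H1047R the 3 of 39 calls stood beside 18 of 28 replication genes called. MKI67 measured 55.9 to 65.4 FPKM in the 6 medium libraries.

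Palbociclib libraries were also set against the conditioned medium libraries, a comparison without the DMSO libraries. Lower here means lower than in medium, which need not be a fall against DMSO. Against DMSO, wild type had 5 of 39 called lower by palbociclib and 34 higher in medium, where 6.77% and 51.9% of all genes were. In wild type 34 of 39 genes were called lower under palbociclib, where 40.5% of all genes were, with a median relative change of -0.60. In H1047R 26 were called lower where 17.6% of all genes were, with a median of -0.45, and in E545K 6 were called lower where 7.13% of all genes were, with a median of -0.21. In wild type BRCA1 (2.19 and 2.39 against 10.1 and 9.93 FPKM) changed by -1.60 (SE 0.17, adjusted p 7.8e-07), and FANCL, XRCC2 and RMI2 by -1.42, -1.24 and -1.21. The palbociclib libraries of these 3 genes measured 5.39 and 5.13, 7.86 and 7.48, and 5.83 and 5.35, against 17.1 and 17.9, 21.4 and 21.9, and 15.7 and 16.0 in medium. BRCA2 and FANCD2 were called lower in wild type as well (-1.17, SE 0.15, adjusted p 2.36e-06, and -1.18, SE 0.20, adjusted p 4.27e-05). In H1047R FANCD2, BLM, TOPBP1 (the activator of ATR) and FANCI (the partner of FANCD2) were the 4 with the largest calls, from -1.04 to -0.93. FANCI measured 36.8 and 20.2 in palbociclib and 57.7 and 52.0 in medium, both palbociclib libraries being lower. TOPBP1 measured 14.97 and 8.40 against 25.0 and 21.6, and BLM 5.53 and 3.64 against 10.96 and 9.21, again with no overlap. BRCA1 and BRCA2 were called lower in H1047R too (-0.73, SE 0.17, adjusted p 0.0038, and -0.54, SE 0.15, adjusted p 0.00692). In E545K RAD54B (10.8 and 10.2 against 15.8 and 15.2) changed by -0.55 (SE 0.13, adjusted p 0.0123), BRCA2 by -0.49 (SE 0.15, adjusted p 0.0354), FANCE by -0.37 and XRCC3 (12.98 and 14.5 against 17.6 and 16.9) by -0.33. BRCA1 (-0.39, SE 0.17, adjusted p 0.168) and FANCD2 (-0.10, SE 0.20, adjusted p 0.848) were not called there. ATM was called in no line, at -0.16 (wild type), 0.06 (E545K) and -0.36 (H1047R, SE 0.24 each; adjusted p 0.285, 0.845 and 0.208). With each library left out in turn 29 of 34 wild type calls and 17 of 26 H1047R calls stayed. None of the 6 calls of E545K (BRCA2, FANCE, RAD54B, RBBP8, UBE2T and XRCC3) stayed: their number was 3 and 2 without E545K palbociclib replicates 1 and 2, 2 without medium replicate 1, and 0 without medium replicate 2, where 8 were lower at an unadjusted p below 0.05 in limma. A fit of palbociclib and medium libraries of the line alone gave counts of 16 in E545K and 8 in H1047R.

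Whether the responses differed between a mutant line and wild type was tested as a difference of differences. For palbociclib in E545K 5 genes were called, RAD51D, BRCA2 and RBBP8 higher and SLX4 and UBE2T lower, where 10.9% and 14.7% of all genes were. RAD51D, a partner of XRCC2, measured 2.52 and 2.57 FPKM then 4.49 and 4.87 in E545K, and 2.08 and 1.89 then 2.33 and 2.27 in wild type. Its treated libraries were well above DMSO in E545K and slightly above in wild type, and the relative log2 difference was 0.58 (SE 0.12, adjusted p 0.00462). BRCA2 differed by 0.73 (SE 0.21, adjusted p 0.0245). SLX4, at 1.29 and 1.41 then 2.11 and 2.45 in wild type and 4.97 and 4.73 then 3.77 and 4.76 in E545K, differed by -0.59 (SE 0.16, adjusted p 0.0089), and RBBP8, at 10.5 and 10.4 then 11.2 and 11.3, and 15.8 and 14.3 then 21.7 and 20.5, by 0.41 (SE 0.11, adjusted p 0.0194). BRCA1 (0.05, SE 0.25), FANCD2 (0.22, SE 0.28) and ATM (-0.14, SE 0.34) were not called. RAD51D was the 1 of the 5 to stay with each library left out in turn; the count was 2 or 3 without any 1 wild type library of the 4, E545K DMSO replicate 2 or E545K palbociclib replicate 1. On the TPM scale 1 was higher and 2 lower, with quantile normalization 5 were higher and 2 lower, and with median-centring 5 and 1. For H1047R 10 genes were called lower where 17.4% of all genes were, with BRCA1 at -0.90 (SE 0.25, adjusted p 0.00958), RAD50 at -0.73 (SE 0.20, adjusted p 0.0084), XRCC2 at -0.59 and PALB2 at -0.58 (SE 0.17, adjusted p 0.00924). FANCD2 (-0.61, SE 0.28, adjusted p 0.0592), BRCA2 (-0.16, SE 0.21, adjusted p 0.251) and ATM (-0.39, SE 0.34, adjusted p 0.239) were not called. This count was 21 without H1047R palbociclib replicate 1 and 5 without replicate 2, without H1047R DMSO replicate 2, without wild type DMSO replicate 2 or without wild type palbociclib replicate 1. BRCA1, RAD50 and PALB2 kept their call with each library left out, and the XRCC2 call was lost without any 1 library except replicate 1 of H1047R DMSO or palbociclib. After quantile normalization 1 gene was higher and 4 were lower. With only the groups compared in the limma fit no gene was called, 11 having an unadjusted p below 0.05.

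For conditioned medium, 22 genes were called lower in E545K than in wild type where 37.1% of all genes were, and XRCC3 higher where 10% were, with a median of -0.37. In H1047R 26 were called lower where 40.5% of all genes were, with a median of -0.31. The largest differences in E545K were BRCA1 (-1.15, SE 0.25, adjusted p 0.00039), SLX4 (-1.10, SE 0.16), EME1 (-1.06, SE 0.14) and BARD1 (-1.02, SE 0.19). BARD1 measured 2.62 and 2.43 FPKM then 7.34 and 7.26 in wild type, and 6.37 and 5.60 then 5.57 and 6.29 in E545K, so that medium lay far above DMSO in wild type and overlapped with it in E545K. In medium SLX4 measured 4.24 and 4.26 in wild type and 4.23 and 4.19 in E545K, and EME1 8.25 and 8.18, and 6.39 and 7.18. In H1047R they were BRCA1 (-1.76, SE 0.25, adjusted p 1.24e-05), RAD50 (-1.32, SE 0.20), FANCL (-1.29, SE 0.23) and RMI2 (-1.07, SE 0.14), the latter at 17.9 and 17.9 in H1047R medium. BRCA2 differed in H1047R (-0.78, SE 0.21, adjusted p 0.000713), and for E545K the difference was 0.07 (SE 0.21, adjusted p 0.562). FANCD2 differed in both (-0.84, SE 0.28, adjusted p 0.0059 in E545K, and -0.73, SE 0.28, adjusted p 0.00787 in H1047R) and ATM was called in neither (-0.35 and -0.18, SE 0.34 each). XRCC3, which pairs with RAD51C, measured 11.7 and 12.1 FPKM then 17.6 and 16.9 in E545K and 13.7 and 12.6 then 12.7 and 13.8 in wild type (0.72, SE 0.12, adjusted p 0.00321). Both differences, and those of palbociclib, use the wild type DMSO libraries, the group in which 20 of the 39 genes were lowest. After quantile normalization the H1047R split was 3 higher and 16 lower, and after median-centring 2 and 16.

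The second table holds the mutant lines alone, and in it the genes stood lower in H1047R than in E545K. The lowest mean of the 4 groups was in H1047R with palbociclib and erlotinib for 35 of 39 genes, against 38.5% of all genes tested. The highest was in E545K palbociclib for 25, against 33.3% of all genes, and in E545K with both drugs for 11, against 24.3%. The highest group mean exceeded the lowest by a median of 1.82-fold, against 1.36-fold over all genes, and by up to 5.40-fold in RAD51AP1, which stimulates strand exchange. Under palbociclib alone both H1047R libraries were below both E545K libraries in 31 of 39 genes, where 41.5% of all genes were, and above them in FANCC, FANCE and MUS81, where 31.8% were. In the first table the same was so for 29 genes, where 36.4% of all genes were, and FANCC alone was above, where 13% were. This line difference was not among the tests and is given as levels. MKI67 measured 10.8 and 11.2 FPKM in these H1047R libraries and 44.6 and 45.0 in E545K, and its part was not tested.

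Erlotinib was added to palbociclib to ask what blocking the EGF receptor changes in the mutant lines. In H1047R 17 of 39 genes were called lower where 6.35% of all genes were, with a median relative change of -0.30. In E545K 5 were called lower and MRE11 higher, where 9.11% and 7.1% of all genes were, with a median of -0.10. The H1047R count was 6 without either library of the combination, and RAD51AP1, FANCI, RAD54L, XRCC2 and UBE2T were the 5 to stay with each library left out in turn. The E545K count was 0 without palbociclib replicate 1 or combination replicate 2, where 8 and 7 genes were lower at an unadjusted p below 0.05 in limma, and 1 without either of the other libraries. After quantile normalization it split into 2 higher and 4 lower. With only the 2 groups of a line in the fit, the counts were 4 in H1047R, and 9 lower and 4 higher in E545K.

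RAD51AP1 measured 7.82 and 7.64 FPKM in H1047R palbociclib and 3.52 and 3.50 with erlotinib. In E545K it measured 19.9 and 18.0 then 15.6 and 14.2. The libraries with erlotinib were lower in both lines, at relative log2 changes of -0.92 (H1047R, SE 0.07, adjusted p 0.000581) and -0.32 (E545K, SE 0.07, adjusted p 0.0217). FANCI measured 22.8 and 25.7 then 15.1 and 14.6 in H1047R (-0.64, SE 0.06, adjusted p 0.000986), and 42.4 and 43.5 then 37.0 and 36.2 in E545K. RAD54L measured 6.85 and 6.47 then 3.71 and 4.14 in H1047R (-0.60, SE 0.08, adjusted p 0.0032), and 12.8 and 14.5 then 12.2 and 12.1 in E545K. XRCC2 measured 14.9 and 15.0 then 9.87 and 9.39 in H1047R (-0.55, SE 0.06, adjusted p 0.00109), and 19.9 and 20.2 then 19.9 and 18.9 in E545K. For these genes the H1047R libraries with erlotinib lay below those without, and for XRCC2 the E545K ranges nearly touched.

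UBE2T was called lower in both lines under erlotinib. It measured 19.4 and 20.5 FPKM then 13.3 and 13.7 in H1047R (-0.50, SE 0.07, adjusted p 0.00423), and 29.3 and 29.5 then 23.5 and 20.5 in E545K (-0.40, SE 0.07, adjusted p 0.00791). FANCA, FANCI and RAD51AP1 were the other genes called lower in both. The share of all genes called lower in both lines was not determined, so the number of shared genes is not set against a background. BRCA1 measured 6.27 and 6.45 then 4.68 and 4.82 in H1047R (-0.32, SE 0.07, adjusted p 0.0217), a call lost without either combination library, and 10.4 and 11.6 then 11.4 and 11.1 in E545K. BRCA2 measured 2.32 and 3.33 then 1.77 and 1.40 in H1047R (-0.52, SE 0.13, adjusted p 0.035), a call also lost without palbociclib replicate 2 or either combination library. FANCD2 measured 9.10 and 8.72 then 6.49 and 6.29 in H1047R (-0.39, SE 0.07, adjusted p 0.0078), lost without either combination library. In E545K BRCA2 measured 5.32 and 5.02 then 4.19 and 4.16 (-0.25, SE 0.13, adjusted p 0.23) and FANCD2 11.4 and 11.1 then 9.77 and 10.5 (-0.14, SE 0.07, adjusted p 0.189), without a call. The largest changes of E545K were BARD1, at 4.23 and 5.08 then 3.26 and 3.21 (-0.41, SE 0.10, adjusted p 0.0294), UBE2T, and FANCA, at 14.97 and 15.8 then 12.2 and 11.7 (-0.33, SE 0.07, adjusted p 0.0144). ATM was called in neither line, with -0.09 in H1047R and 0.12 in E545K (SE 0.11 each).

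**Figure D5:**
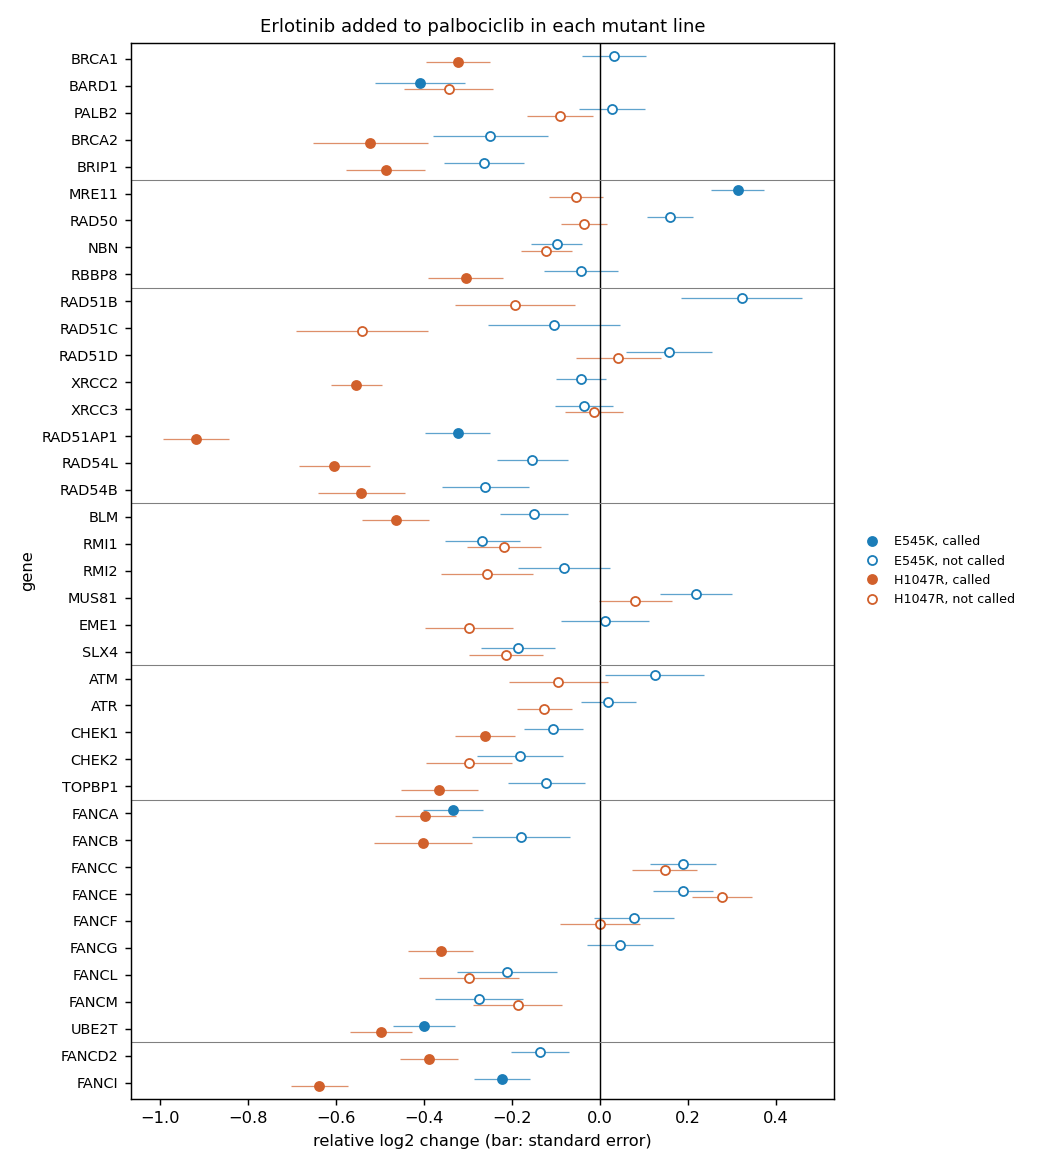
Relative log2 change of each gene when erlotinib was added to palbociclib (horizontal axis, bars are standard errors), in E545K (blue) and H1047R (orange); filled points were called at an adjusted p below 0.05. The H1047R points lie left of 0 for 34 of 39 genes, down to -0.92 at RAD51AP1, and the E545K points for 25, down to -0.41 at BARD1.

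The responses of the 2 lines to erlotinib differed in 3 genes, RAD51AP1, XRCC2 and FANCI, all lower in H1047R, where 1.27% of all genes were called lower. The relative log2 differences were -0.59 (SE 0.11, adjusted p 0.0252), -0.51 (SE 0.08, adjusted p 0.0176) and -0.41 (SE 0.09, adjusted p 0.0489). BRCA1 (-0.35, SE 0.10, adjusted p 0.106), BRCA2 (-0.27, SE 0.18, adjusted p 0.437), FANCD2 (-0.25, SE 0.09, adjusted p 0.163) and ATM (-0.22, SE 0.16, adjusted p 0.458) were not called. None of the 3 calls stayed with each library left out: no gene was called without any 1 E545K library or H1047R combination library (9 to 15 were lower at an unadjusted p below 0.05 in limma), while 13 were without H1047R palbociclib replicate 1 and 5 without replicate 2. With erlotinib 24 of 28 replication genes and 23 of 23 mitosis genes were called lower in H1047R, and 15 and 22 in E545K, with medians of -0.46 and -0.87, and of -0.25 and -0.45. MKI67 measured 5.53 and 5.29 FPKM with erlotinib in H1047R and 27.6 and 27.6 in E545K, from the values without it given above. Of the 54 other genes of the pathway 14 were called lower in H1047R, and 7 lower and 3 higher in E545K.

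Several values carry a limit from counting. By RefSeq coordinates (GRCh38.p14) 17 of the 39 genes overlap another protein coding gene, as XRCC3 does KLC1, FANCL does VRK2, FANCI does POLG and ATM does C11orf65, and whether counting used the strand is not given in the sources used here. For 6 genes pseudogenes carry the symbol, as BRCA1P1 of BRCA1, FANCD2P1 and FANCD2P2 of FANCD2, and MRE11P1 of MRE11, and how reads fitting both were assigned is not given either, so these values are uncertain to that degree.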

How the data were processed

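Poly(A)-selected RNA of LoVo cells was measured in 26 libraries, in 2 tables normalised apart by the authors. The deposited values are FPKM per gene; the submitters' processing notes name HISAT2 2.1.0, Bowtie2 2.3.4.3, RSEM 1.3.1, DESeq2 1.4.5 and GRCh38, without saying which step made the table. No read counts were used, so the depth per library is unknown and no counting interval is given; low values lay near whole steps for 55.3% and 57.1% of cases (tolerance 0.15), too few to recover reads. Genes that reached 1 FPKM in 2 or more libraries were tested with limma 3.58.1 (R 4.3.3, trend) on log2(FPKM + 1), which understates changes of low genes, in 1 fit per table over all its groups, with Benjamini-Hochberg adjustment over all genes of each of 18 comparisons (15 and 3). Genes passing an adjusted p of 0.05 were called. With 2 libraries against 2, an exact permutation test cannot go below 0.333, so none is given. Samples were grouped by their GEO labels. Alternatives were a pseudocount of 0.25, no filter, quantile normalization, median-centring, the TPM scale, only the groups compared, a replicate block and leaving out each library. The members and lists were chosen with earlier results of these data known. Named in each comparison were up to 4 called members with the largest relative change, BRCA1, BRCA2, FANCD2 and ATM, and genes singled out after their values were seen (such as UBE2T, FANCL, RMI2, RAD51D and GEN1). The model was also run on simulated data with the same spread in every group. The real groups differed in spread, so this does not test the calls of the group with the widest one. Values were read with Python 3.11.15 and pandas 2.3.3 and drawn with matplotlib 3.10.9. Promoter windows are RefSeq's, for 35 of 39 genes.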

Additional observations from a re-analysis of the deposited data

Results flagged for a closer look

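Responses that differed between lines by the limma test of the difference itself are listed here as values, each a relative log2 difference unless it is a count. For palbociclib, 5 of the 39 genes differed between E545K and wild type, where 25.7% of all genes were called in either direction, with BRCA2 at 0.73, RAD51D at 0.58, RBBP8 at 0.41 and SLX4 at -0.59. Between H1047R and wild type 10 differed, where 22.6% of all genes were, with BRCA1 at -0.90, RAD50 at -0.73, XRCC2 at -0.59 and PALB2 at -0.58. For conditioned medium, 23 differed between E545K and wild type, where 47.1% of all genes were, with BRCA1 at -1.15, SLX4 at -1.10, EME1 at -1.06, BARD1 at -1.02 and FANCD2 at -0.84. Between H1047R and wild type 26 differed, where 50.9% of all genes were, with BRCA1 at -1.76, RAD50 at -1.32, FANCL at -1.29, RMI2 at -1.07, BRCA2 at -0.78 and FANCD2 at -0.73. All 4 of these comparisons share the 2 wild type DMSO libraries, so their values are not independent. With each library left out in turn, RAD51D alone of the 5 E545K palbociclib calls stayed. Of the 10 H1047R palbociclib calls 5 stayed, and XRCC2 was not among them. For conditioned medium 16 of the 22 lower calls and the 1 higher call of E545K stayed, and 23 of the 26 of H1047R. For erlotinib, 3 differed between H1047R and E545K, where 2.17% of all genes were called, with RAD51AP1 at -0.59, XRCC2 at -0.51 and FANCI at -0.41, and none of these calls stayed when single libraries were left out.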

How the results depend on the processing

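The total of called genes, higher and lower together, moved by over 1.5 times in 7 of 18 comparisons when only the groups compared were fitted. Each other alternative beside leaving out a library moved it in at most 1 comparison. A total does not show a change of direction. For palbociclib in wild type, 2 of 7 higher and 3 of 5 lower calls held under quantile normalization, median-centring and the TPM scale. When a fit held no other groups than those compared, the count was 0 for palbociclib in H1047R and for the H1047R against wild type palbociclib response (limma, where 14 genes lower and 1 higher, and 11 lower, had an unadjusted p below 0.05), 16 and 8 for palbociclib against conditioned medium in E545K and H1047R, 9 for the E545K palbociclib response difference, and 13 and 4 for erlotinib in E545K and H1047R. The TPM scale gave 3 for the E545K palbociclib response difference, quantile normalization 5 and median-centring 6 for that of H1047R, and no filter 1 for the erlotinib response difference. The cause of these moves was not tested. Leaving out 1 library gave 4 to 8 for palbociclib in wild type, 10 to 28 in H1047R, 0 to 3 for palbociclib against medium in E545K, 2 to 6 and 5 to 21 for the palbociclib response differences of E545K and H1047R, 0 to 1 and 6 to 21 for erlotinib in E545K and H1047R, and 0 to 13 for its difference.

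The replicate block kept each count within 1.5 times, for example 27 for E545K against wild type in DMSO, 14 for erlotinib in H1047R and 2 for the erlotinib difference. Same-numbered deviations had correlations from -0.56 to 0.55 over 36 pairs of groups in the first table, 15 of them over 0.1. Over the 6 pairs of the second table they ran from -0.10 to 0.03. With signs mixed, replicate numbers were not taken as pairs, but this does not show whether libraries shared a batch.

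Of the 4 genes named in every comparison, some values that were not called changed sign. Not all of these were near 0, as ATM stood at -0.36 for palbociclib against medium in H1047R. The relative log2 change of ATM became -0.17 in H1047R against wild type and -0.046 under palbociclib in E545K after quantile normalization, and 0.028 in E545K medium with no filter. BRCA2 under palbociclib in wild type became 0.050 with a pseudocount of 0.25, 0.060 with no filter and 0.0051 on the TPM scale, and its E545K medium response difference -0.20, -0.073 and -0.0497 in the same settings. Its H1047R palbociclib response difference became 0.0068 after quantile normalization. FANCD2 in E545K medium became 0.046 with no filter, and the E545K palbociclib response difference of BRCA1 -0.083 with the smaller pseudocount and -0.022 on the TPM scale. With 1 library left out, ATM ranged from -0.16 to 0.45 in E545K and -0.29 to 0.31 in H1047R against wild type, -0.14 to 0.47, -0.19 to 0.25 and -0.63 to 0.15 under palbociclib in wild type, E545K and H1047R, -0.24 to 0.20 and -0.028 to 0.30 in E545K and H1047R medium, -0.76 to 0.012 for palbociclib against medium in H1047R, -0.44 to 0.16 and -0.48 to 0.12 for the E545K palbociclib and H1047R medium response differences, and -0.27 to 0.081 for erlotinib in H1047R. BRCA2 ranged from -0.069 to 0.030 and -0.46 to 0.075 under palbociclib in wild type and H1047R, -0.43 to 0.091 for the H1047R palbociclib response difference and -0.0012 to 0.15 for the E545K medium response difference. FANCD2 ranged from -0.0801 to 0.071 and -0.013 to 0.21 in E545K and H1047R medium, and BRCA1 from -0.076 to 0.17 for the E545K palbociclib response difference and -0.040 to 0.11 for erlotinib in E545K.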
